A study of Mus musculus with 12 samples.

Results

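The Slc25 genes encode the mitochondrial carrier family, the transport proteins that move metabolites across the inner mitochondrial membrane. All 47 symbols of the form Slc25a followed by a number were taken as members, out of 23238 different gene symbols in the files, and 38 of the 47 passed the filter on low values and were tested. Kidney RNA of C57BL/6 mice was measured in 3 groups of 4 libraries by QuantSeq, which reads each polyadenylated transcript at its 3′ end. The first group is mice with chronic kidney disease under time restricted feeding (CKD TRF), the second is mice with chronic kidney disease (CKD), and the third is controls (Control). The labels name no allele, transgene or drug for any group, and do not give the way the disease was produced, the feeding hours, the hour of sampling, the sex or the age. They also do not tie each library to its own mouse, so a p-value here measures the spread between libraries, part of which may be technical.

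The inner mitochondrial membrane is closed to most charged metabolites, and each carrier opens it to a small set of substrates, usually by exchanging one for another. ADP and phosphate enter and ATP leaves in this way, and the same family moves citrate, malate, 2-oxoglutarate, amino acids, acylcarnitines, nucleotides and cofactors. The proximal tubule of the kidney is rich in mitochondria, relies on fatty acid oxidation for ATP, and makes glucose and ammonia from substrates that pass through these carriers.

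The promoters shown here belong to a pair of paralogues that moved in opposite directions, Slc25a24 and Slc25a23, and to Slc25a5, one of the ADP/ATP exchangers. They are the 250 bases before the RefSeq transcript start on build GRCm38.p6, on the gene's strand, and none of these bases lies in an exon of the GENCODE annotation. For Slc25a5 this start lies upstream of the GENCODE gene start, and the bases just after it were not found in the gene's GENCODE transcript. Capitals mark GGGCGG, the GC box bound by Sp and KLF factors, and CCAAT, the box bound by NF-Y, on either strand. The windows are chr3:109122899-109123148 (plus strand) for Slc25a24, chr17:57059864-57060113 (minus strand) for Slc25a23 and chrX:36795347-36795596 (plus strand) for Slc25a5.
Slc25a24: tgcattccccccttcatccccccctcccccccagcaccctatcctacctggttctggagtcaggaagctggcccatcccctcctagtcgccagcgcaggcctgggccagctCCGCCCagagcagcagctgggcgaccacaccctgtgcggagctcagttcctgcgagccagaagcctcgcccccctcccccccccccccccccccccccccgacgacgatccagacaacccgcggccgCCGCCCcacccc
Slc25a23: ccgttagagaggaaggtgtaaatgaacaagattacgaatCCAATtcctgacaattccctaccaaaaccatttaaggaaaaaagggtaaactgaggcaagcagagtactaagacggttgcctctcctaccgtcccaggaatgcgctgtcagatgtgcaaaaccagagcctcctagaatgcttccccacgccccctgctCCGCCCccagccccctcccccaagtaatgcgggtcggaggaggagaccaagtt
Slc25a5: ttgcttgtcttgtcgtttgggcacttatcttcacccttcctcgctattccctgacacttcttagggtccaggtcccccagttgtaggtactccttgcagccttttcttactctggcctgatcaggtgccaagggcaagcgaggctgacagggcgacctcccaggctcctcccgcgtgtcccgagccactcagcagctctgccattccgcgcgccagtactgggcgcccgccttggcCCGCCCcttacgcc
The Slc25a24 and Slc25a5 windows held 14 CG pairs each and the Slc25a23 window 9, against a median of 6 over the 32851 mouse promoters of the same RefSeq table. In the full 300-base promoters, which run to 50 bases past the start, GGGCGG or its complement was found for 13 of the 15 lower Slc25 genes with an entry, for both higher ones and for 11 of the 13 tested genes that did not pass, against 35.7% of all promoters. CCAAT was found for 7 of the 15 lower genes and 10 of the 13 tested genes that did not pass, against 37.4% of all promoters. TCAAGGTCA (estrogen-related receptors) and CAAAGTCCA (HNF4) were in none of the promoters of the 30 tested members with an entry, against 0.423% and 0.475% of all promoters. CCGGAAGT (ETS factors) was in 1 of these 30, Slc25a20, and TGANTCA (AP-1) in 2, Slc25a11 and Slc25a13, against 3.89% and 7.81% of all promoters. The core promoter element TATAAA was in 1, Slc25a21, against 13.6% of all promoters. A gene was counted when any of its promoter entries held the motif, while the percentages of all promoters count single entries. The counts of genes and these percentages are therefore not like for like. Motifs were searched on both strands, no marked motif overlaps another in the windows above, and a match is only a string of letters.

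Levels are given as scaled reads, the deposited log2 value with its log2 and its added 1 undone, and changes as differences of deposited log2 values (± SE from limma, n = 4 libraries per group). Levels are not ranked between genes, because the values read the 3′ end of each transcript alone. Ratios and shares of genes within a library are given only to compare the groups. Libraries held 14146132 to 17210183 reads in CKD TRF, 14512576 to 16858247 in CKD and 10989989 to 12810986 in Control. A gene with no read in a library could still hold up to 3 reads' worth, 0.168 to 0.306 scaled reads, a limit that covers counting error only. Markers of fat (Adipoq, Plin1, Cidec and Cfd, summed) were at 73.5, 0.398, 63.6 and 122 scaled reads in CKD TRF 1 to 4, at 11.1, 160, 3.60 and 369 in CKD 1 to 4, and at 0 to 1.29 in Control. Control 2 stood apart from the other Control libraries on the second principal component (8.07% of the variance). Scaled reads of a library summed to 987841 to 1025834 in CKD TRF, 941189 to 978419 in CKD and 1076773 to 1180101 in Control, so the scaling of the libraries moved with the groups.

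The comparison of CKD with Control asks which carriers differ in diseased kidneys. Of the 38 tested Slc25 genes, 20 were lower and 2 higher in CKD than in Control at an adjusted p below 0.05 (limma, Benjamini-Hochberg), a share of 52.6% lower and 5.26% higher. Over all 13943 tested genes, 21.8% were lower and 23.6% higher (45.4% in either direction). These are the shares to set beside the CKD counts by substrate and by cell marker below. The median change was -0.34 over the 38 genes and 0.02 over all tested genes. The groups did not overlap for 15 of the 38, 14 lower and 1 higher, against 39.5% of all tested genes (19.2% lower, 20.3% higher). Among the 21 Slc25 genes with a mean log2 value of at least 5, 13 were lower and 1 higher, and 38.6% and 17% of all genes at such levels were lower and higher, with medians of -0.33 over the 21 and -0.16 over all. Kidney was sampled whole, so fewer cells of a type and less RNA per cell cannot be told apart for any of these genes.

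The split of the calls moved with the scaling of the libraries. When libraries were scaled to equal sums, the median change of all genes moved up by 0.21, and 9 Slc25 genes were lower and 6 higher, against 11.1% and 35.8% of all tested genes. Scaled to equal sums without Rn45s, the ribosomal RNA precursor, the median moved up by 0.25, with 9 lower and 9 higher, against 9.55% and 39.2% of all. With every library centred on its median it moved down by 0.10, with 22 lower and 1 higher, against 28.1% and 19% of all. Quantile normalization gave 17 lower and 3 higher, against 22.3% and 20.5% of all. Under these 4 scalings the 22 genes kept their direction except Slc25a3 and Slc25a39, which turned to 0.09 and 0.16 under quantile normalization with neither past the threshold. Slc25a39 was also at 0 under equal sums without Rn45s. Slc25a4 and Slc25a24 held the lowest and the highest change of the 38 under all 4.

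**Figure D1:**
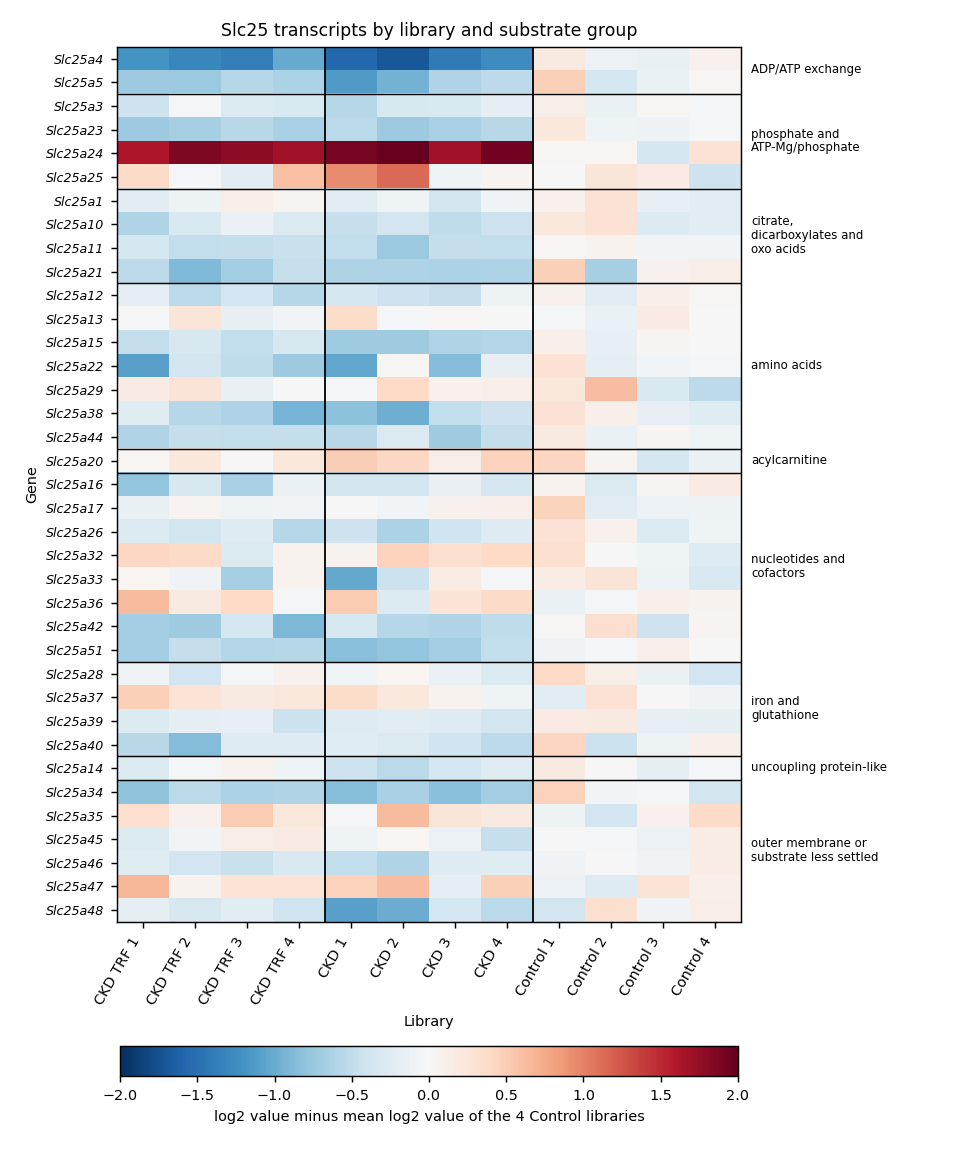
Each cell is the deposited log2 value of a tested Slc25 gene (all but 1 of the 38) in a library minus the mean of the 4 Control libraries, with CKD TRF, CKD and Control libraries from left to right and genes grouped by substrate. Slc25a24 is the one dark red line in all 8 diseased libraries and Slc25a4 the darkest blue one, while the 4 CKD TRF and the 4 CKD columns look alike for most genes.

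The ADP/ATP exchangers fell. Slc25a4, which encodes the adenine nucleotide translocase of heart and muscle (ANT1; mm10 chromosome 8, 46206797 to 46211284, minus strand), had 287, 266, 252 and 325 scaled reads in CKD TRF 1 to 4, 221, 202, 246 and 276 in CKD 1 to 4, and 743, 602, 596 and 699 in Control 1 to 4. All 8 diseased libraries lay below all 4 Control libraries, by more than the spread within any group. The means were 282 ± 31.8 in CKD TRF, 236 ± 32.2 in CKD and 660 ± 72.8 in Control (SD, n = 4). The change in CKD against Control was -1.48 ± 0.11, which is 0.358-fold (95% interval of the log2 change -1.72 to -1.25, limma adjusted p = 4.3e-09). It stayed past the threshold under all 27 alternatives, with changes from -1.59 to -1.14.

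Slc25a5, the translocase of most other tissues (ANT2; chromosome X, 36795651 to 36798807, plus strand), had 311, 306, 344 and 328 scaled reads in CKD TRF 1 to 4, 231, 267, 337 and 353 in CKD 1 to 4, and 710, 402, 464 and 518 in Control 1 to 4. Control 1 was far above the other Control libraries, and the groups still did not overlap. Slc25a5 fell by 0.80 ± 0.15 in CKD (0.573-fold, limma adjusted p = 1.8e-04). The last 500 bases of its transcript matched the processed transcript Slc25a5-ps at 95.2% identity and shorter stretches of 2 pseudogenes, so reads could be split among these copies. The ratio of Slc25a4 to Slc25a5 within a library, which a common factor for the whole library does not alter, was 0.731 to 0.990 in CKD TRF, 0.730 to 0.956 in CKD and 1.05 to 1.5 in Control. All 8 diseased libraries lay below all 4 Control libraries in it. This ratio and the 3 below were chosen after the values were seen and carry no test. Slc25a31, the translocase of male germ cells, had 7 reads over all 12 libraries and was not tested.

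Of 4 tested carriers of phosphate and of ATP-Mg, 1 rose and 2 fell in CKD. Slc25a24, a calcium-regulated ATP-Mg/phosphate carrier that adjusts the adenine nucleotide pool of the matrix (SCaMC-1; chromosome 3, 109123149 to 109168457, plus strand), had 25.3, 30.4, 28.9 and 26.7 scaled reads in CKD TRF 1 to 4, 31.1, 33.1, 26.6 and 31.7 in CKD 1 to 4, and 7.76, 7.83, 5.78 and 9.50 in Control 1 to 4. All 8 diseased libraries lay above all Control libraries with a wide gap between them. The means were 27.8 ± 2.26 in CKD TRF, 30.6 ± 2.81 in CKD and 7.72 ± 1.52 in Control (SD, n = 4). The change in CKD was 1.87 ± 0.14, which is 3.66-fold (95% interval 1.57 to 2.17, limma adjusted p = 5.6e-09), and it stayed past the threshold under all 27 alternatives, with changes from 1.49 to 2.13. CKD 3, the CKD library with the lowest fat marker sum, had 26.6 scaled reads of Slc25a24, and CKD TRF 2, the diseased library with the lowest of all, had 30.4.

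Slc25a23, its paralogue (SCaMC-3; chromosome 17, 57043711 to 57059863, minus strand), had 44.3, 46.0, 50 and 46.8 scaled reads in CKD TRF 1 to 4, 50.5, 43.9, 46.4 and 49.9 in CKD 1 to 4, and 86.1, 69.7, 68.5 and 71.8 in Control 1 to 4. The diseased libraries lay together and all below Control. Slc25a23 fell by 0.62 ± 0.10 in CKD (0.651-fold, limma adjusted p = 6.7e-05). An antisense gene, Gm17168, overlaps its 3′ end, and the strand setting of the counting is not given in the sources used here, so reads of the pair cannot be told apart. The ratio of Slc25a24 to Slc25a23 was 0.570 to 0.659 in CKD TRF, 0.573 to 0.752 in CKD and 0.0845 to 0.132 in Control, with no overlap between diseased and Control libraries.

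Slc25a3, the main phosphate carrier, which delivers phosphate for ATP synthesis, had 730, 947, 802 and 789 scaled reads in CKD TRF 1 to 4, 647, 776, 789 and 850 in CKD 1 to 4, and 1050, 878, 986 and 955 in Control 1 to 4. CKD and Control did not overlap, by the gap between CKD 4 and Control 2, while CKD TRF 2 lay within the Control range. It fell by 0.34 ± 0.11 in CKD (0.789-fold, limma adjusted p = 0.0147), a call that ended without CKD 1 (-0.26, adjusted p = 0.0673), under both equal-sum scalings and under quantile normalization. The call also ended with the fat markers as a covariate and without the 6 libraries with most fat marker reads. Slc25a25, the third calcium-regulated ATP-Mg/phosphate carrier (SCaMC-2), had 31.3, 23.0, 20 and 36.4 scaled reads in CKD TRF 1 to 4, 46.6, 52.7, 22.2 and 24.7 in CKD 1 to 4, and 23.7, 28.0, 26.4 and 17.5 in Control 1 to 4. CKD 1 and CKD 2 were high and CKD 3 and CKD 4 lay within the Control range, and the change of 0.52 ± 0.24 did not pass (limma adjusted p = 0.0815). It passed under the equal-sum scalings (0.74 and 0.78, adjusted p = 0.0185 and 0.012) and without CKD 3 or without CKD 4. Slc25a41 had 3 reads, all in 1 library, and was not tested.

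**Figure D2:**
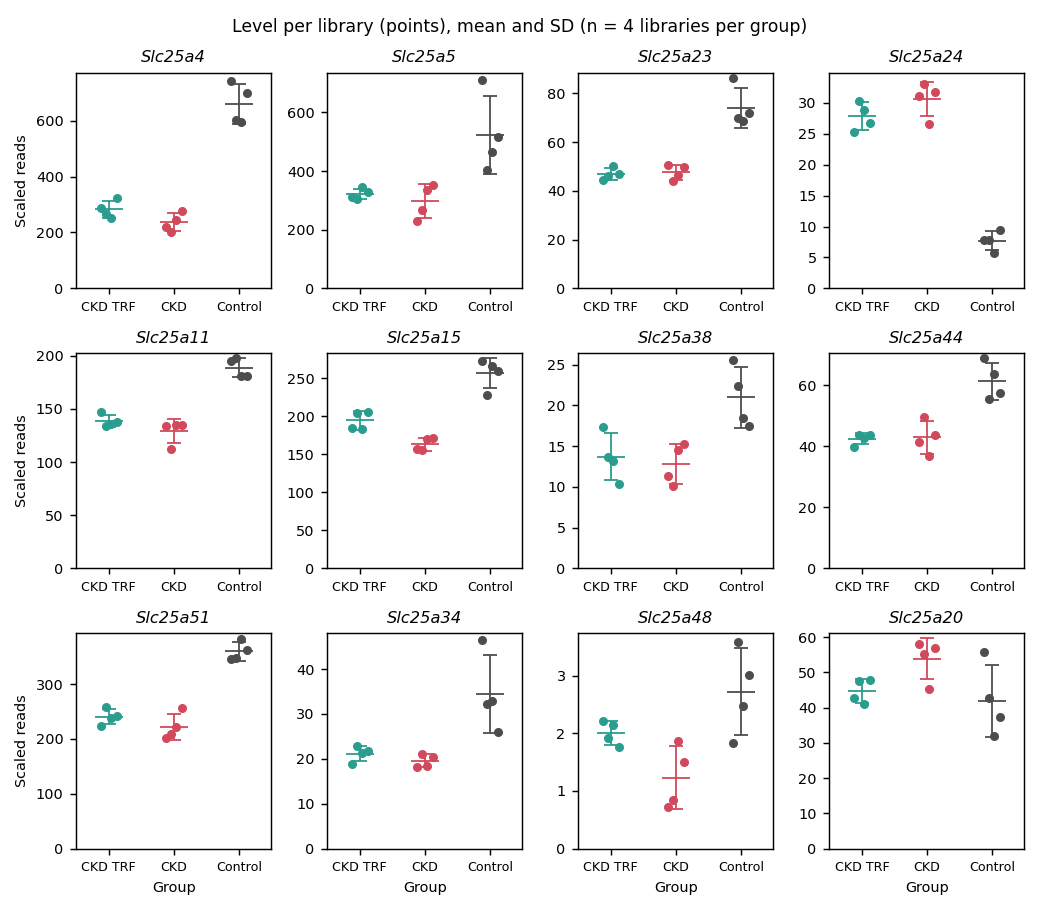
Points are scaled reads of 12 Slc25 genes in each library, by group in the order CKD TRF, CKD, Control, with the mean and SD of 4 libraries; each axis starts at 0. Slc25a4 and 9 others of these genes have lower means in both diseased groups, Slc25a24 sits near 30 in diseased and near 8 in Control libraries, and Slc25a20 overlaps between all groups.

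Of the 4 carriers of citrate, dicarboxylates and oxo acids, 3 fell in CKD and none rose. Slc25a11, which exchanges 2-oxoglutarate for malate in the malate-aspartate shuttle, had 147, 134, 136 and 138 scaled reads in CKD TRF 1 to 4, 134, 112, 135 and 135 in CKD 1 to 4, and 195, 198, 181 and 181 in Control 1 to 4. No diseased library reached the Control range, and CKD 2 was the lowest. Slc25a11 fell by 0.55 ± 0.09 in CKD (0.682-fold, limma adjusted p = 5.2e-05). Slc25a10, the dicarboxylate carrier for malate and succinate, averaged 149 ± 19.7 in CKD TRF, 138 ± 5.70 in CKD and 190 ± 37.5 in Control (SD, n = 4) and fell by 0.44 ± 0.12 in CKD (limma adjusted p = 0.00675). That call ended under the equal-sum scalings (-0.21 and -0.17), under quantile normalization (-0.21) and without the 6 libraries with most fat marker reads (-0.51). Slc25a21, the oxodicarboxylate carrier of lysine and tryptophan breakdown, fell by 0.63 ± 0.18 (limma adjusted p = 0.00724), although Control 2, at 20 scaled reads, lay below all 4 CKD libraries, which spanned 20.4 to 20.8. The call of Slc25a21 ended under the equal-sum scalings (-0.41 and -0.36) and without the 5 or the 6 libraries with most fat marker reads, and its 3′ end overlaps Pax9 on the opposite strand. Slc25a1, the citrate carrier that exports acetyl units for lipid synthesis, averaged 79.1 ± 8.48 in CKD TRF, 71.3 ± 6.62 in CKD and 81.7 ± 13.8 in Control, a change of -0.18 ± 0.12 in CKD that did not pass (limma adjusted p = 0.222).

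Of 7 tested amino acid carriers, 4 fell in CKD. Slc25a15, the ornithine/citrulline carrier of the urea cycle, had 184, 204, 183 and 206 scaled reads in CKD TRF 1 to 4, 157, 155, 170 and 171 in CKD 1 to 4, and 273, 228, 266 and 259 in Control 1 to 4. The 3 groups did not overlap, with CKD TRF between the others. Slc25a15 fell by 0.65 ± 0.09 in CKD (0.638-fold, limma adjusted p = 8.5e-06). Slc25a38, which supplies mitochondrial glycine for heme synthesis, had 17.4, 13.7, 13.2 and 10.4 scaled reads in CKD TRF 1 to 4, 11.3, 10.1, 14.5 and 15.3 in CKD 1 to 4, and 25.6, 22.4, 18.5 and 17.5 in Control 1 to 4. Both diseased groups lay below Control, by a narrow gap between CKD TRF 1 and Control 4. It fell by 0.68 ± 0.18 in CKD (0.626-fold, limma adjusted p = 0.00399).

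Slc25a44, which carries branched-chain amino acids, had 39.8, 43.6, 42.9 and 43.6 scaled reads in CKD TRF 1 to 4, 41.4, 49.8, 36.8 and 43.7 in CKD 1 to 4, and 68.9, 55.5, 63.6 and 57.4 in Control 1 to 4. Both diseased groups lay below Control, and the change in CKD was -0.51 ± 0.11 (0.703-fold, limma adjusted p = 9.5e-04). That call ended under the equal-sum scalings (-0.28 and -0.24, adjusted p = 0.0557 and 0.0884). Of the aspartate/glutamate carriers of the malate-aspartate shuttle, Slc25a12 (aralar) fell by 0.33 ± 0.12 (limma adjusted p = 0.0231), while Slc25a13 (citrin), at 175 ± 21.5 in CKD TRF, 185 ± 24.8 in CKD and 173 ± 15.1 scaled reads in Control, changed by 0.09 ± 0.11 and did not pass (0.534). Slc25a13 passed as higher under the equal-sum scalings (0.32 and 0.36, adjusted p = 0.0325 and 0.0109) and also under quantile normalization. The ratio of Slc25a13 to Slc25a12 was 2.44 to 3.69 in CKD TRF, 2.31 to 3.49 in CKD and 1.96 to 2.25 in Control, with no overlap with Control and the difference not tested. Slc25a22, a glutamate carrier, changed by -0.51 ± 0.22 (limma adjusted p = 0.0617) and Slc25a29, a carrier of basic amino acids, by 0.15 ± 0.24 (0.641). Slc25a22 passed as lower under 6 of the 27 alternatives, among them median centring, quantile normalization and the fat marker covariate (-0.61, -0.65 and -0.74, adjusted p = 0.0236, 0.0242 and 0.0341).

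**Figure D3:**
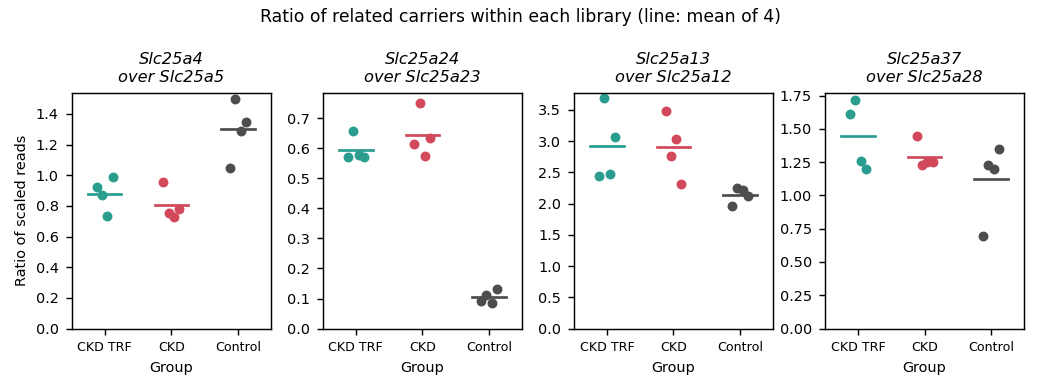
Points are ratios of scaled reads of paired Slc25 carriers within each library, by group in the order CKD TRF, CKD, Control, with the mean of 4 libraries as a line. The Slc25a24 over Slc25a23 ratio lies at 0.570 or above in all 8 diseased libraries and at 0.132 or below in Control, and the Slc25a37 over Slc25a28 ratio overlaps between groups.

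Slc25a20, the carnitine/acylcarnitine carrier that brings long-chain acyl groups to oxidation, was the other gene that rose. It averaged 44.8 ± 3.43 scaled reads in CKD TRF, 53.8 ± 5.77 in CKD and 42.0 ± 10.2 in Control (SD, n = 4), a change of 0.38 ± 0.14 in CKD (limma adjusted p = 0.0339). CKD 2 and CKD 3 lay within the Control range, and Control 1, at 55.8 scaled reads, within the CKD range. The call ended under 11 of the 27 alternatives. Among them were the fits without Control 3, Control 4, CKD 1, CKD 2 or CKD 4 (0.26 to 0.36, adjusted p = 0.0737 to 0.13) and median centring (0.27, 0.116).

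Of 8 carriers of nucleotides and cofactors described here, 3 fell in CKD and none rose. Slc25a51, which imports NAD, had 224, 258, 239 and 241 scaled reads in CKD TRF 1 to 4, 201, 209, 221 and 256 in CKD 1 to 4, and 345, 348, 383 and 363 in Control 1 to 4. All diseased libraries lay well below Control, and the change in CKD was -0.70 ± 0.09 (0.615-fold, limma adjusted p = 5.4e-06). This was the third and last call that held under all 27 alternatives, with changes from -0.81 to -0.41. The CoA carrier Slc25a42 fell by 0.51 ± 0.17 and the S-adenosylmethionine carrier Slc25a26 by 0.43 ± 0.15 (limma adjusted p = 0.0188 and 0.026). Both calls ended without single libraries, Slc25a42 without Control 2 (-0.40, adjusted p = 0.0664) and Slc25a26 without Control 1, Control 2 or CKD 2 (0.0521 to 0.0983). Both also ended under the equal-sum scalings (-0.29 and -0.25 for Slc25a42, -0.21 and -0.17 for Slc25a26), with the fat markers as a covariate and without the 5 or the 6 libraries with most fat marker reads.

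The other 5 of these carriers did not pass in CKD. The changes were -0.31 ± 0.14 for Slc25a16, linked to CoA import, 0.04 ± 0.12 for Slc25a17, the peroxisomal carrier of CoA and related cofactors, and 0.32 ± 0.20 for Slc25a32, which carries folate or FAD. The pyrimidine nucleotide carriers Slc25a33 and Slc25a36 changed by -0.34 ± 0.23 and 0.22 ± 0.19. The adjusted p-values of these 5 from limma lay between 0.0681 for Slc25a16 and 0.828 for Slc25a17. Slc25a16 passed as lower under 4 of the 27 alternatives, median centring among them (-0.42, adjusted p = 0.0166). Slc25a17, Slc25a32 and Slc25a36 passed as higher when libraries were scaled to equal sums without Rn45s (0.31, 0.55 and 0.47, adjusted p = 0.0317, 0.03 and 0.049).

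Of 4 tested iron and glutathione carriers 1 fell in CKD (25%, near the 21.8% of all tested genes) and none rose. Slc25a39, which imports glutathione, averaged 586 ± 47.4 scaled reads in CKD TRF, 578 ± 25.9 in CKD and 705 ± 94.6 in Control (SD, n = 4) and fell by 0.28 ± 0.10 in CKD (limma adjusted p = 0.0355). This call ended under 15 of the 27 alternatives, among them the fits without Control 1, Control 2 or any of the 4 CKD libraries (-0.29 to -0.22, adjusted p = 0.0522 to 0.106). Its paralogue Slc25a40, at 5.80 ± 0.615 in CKD and 7.93 ± 2.26 in Control, changed by -0.36 ± 0.21, and its 3′ end matched the pseudogene Gm5066 over 362 bases. The mitoferrins, which import iron, changed by 0.14 ± 0.13 (Slc25a37) and -0.11 ± 0.15 (Slc25a28), and their ratio, 1.20 to 1.72 in CKD TRF, 1.23 to 1.45 in CKD and 0.695 to 1.35 in Control, overlapped between all groups. None of these 3 passed (limma adjusted p = 0.162, 0.396 and 0.592 for Slc25a40, Slc25a37 and Slc25a28). Slc25a37 did pass as higher under the equal-sum scalings (0.36 and 0.41, adjusted p = 0.0259 and 0.0141), and Slc25a40 as lower under quantile normalization (-0.61, 0.0193).

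Slc25a14, an uncoupling protein-like carrier (UCP5), averaged 11 ± 1.18 scaled reads in CKD TRF, 8.66 ± 0.844 in CKD and 11.7 ± 1.29 in Control (SD, n = 4). It fell by 0.39 ± 0.15 in CKD (limma adjusted p = 0.0467), close to the threshold, and the call ended under 17 of the 27 alternatives. Among these were the fits without Control 1, 2 or 4, without CKD 1, 2 or 3 and without CKD TRF 2 or 4 (-0.40 to -0.33, adjusted p = 0.0533 to 0.126). The call of Slc25a12 also ended without Control 1, Control 3, CKD 2 or CKD 3 (-0.31 to -0.29, adjusted p = 0.0573 to 0.075), under the equal-sum scalings (-0.11 and -0.06) and under quantile normalization (-0.23).

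Among carriers of less settled substrate, 3 of 6 tested genes fell in CKD. Slc25a34 had 18.8, 22.8, 21.3 and 21.8 scaled reads in CKD TRF 1 to 4, 18.1, 21.0, 18.5 and 20.5 in CKD 1 to 4, and 46.5, 32.3, 32.8 and 25.9 in Control 1 to 4. The Control libraries were spread widely and still all lay above the diseased ones, and the change in CKD was -0.76 ± 0.15 (0.591-fold, limma adjusted p = 3.6e-04). Slc25a46, an outer membrane protein that shapes mitochondria, fell by 0.40 ± 0.10 (limma adjusted p = 0.00396), a call that ended under the equal-sum scalings (-0.18 and -0.13) and without the 5 or the 6 libraries with most fat marker reads. Slc25a48, linked to choline import, fell by 0.75 ± 0.24 (0.0134) at a low level of 2.02 ± 0.205 scaled reads in CKD TRF, 1.23 ± 0.545 in CKD and 2.73 ± 0.750 in Control, where the added 1 shrinks changes. Its call ended without those 5 or 6 libraries (-0.73 and -0.36) and with the fat markers as a covariate (-0.76, adjusted p = 0.0556). Slc25a35, Slc25a45 and Slc25a47 changed by 0.25 ± 0.19, -0.16 ± 0.13 and 0.34 ± 0.26 and did not pass (limma adjusted p = 0.293, 0.34 and 0.292), though Slc25a35 passed as higher under equal sums without Rn45s (0.50, 0.039). Near the 3′ ends of other members, stretches of at least 95% identity or overlap were found for Slc25a3 (Gm13904), Slc25a26 (Lrig1, opposite strand), Slc25a35 (Rangrf, opposite strand), Slc25a37 (Gm16867) and Slc25a51 (Itgad), whose values are uncertain to that extent.

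The 9 untested members were Slc25a2, Slc25a18, Slc25a27, Slc25a30, Slc25a31, Slc25a41, Slc25a43, Slc25a53 and Slc25a54, with 3 to 103 reads over all 12 libraries. Slc25a30, known as kidney mitochondrial carrier protein, had 65 reads in all and at most 0.919 scaled reads in a library. Slc25a47 and Slc25a48 lay just inside the filter at mean log2 values of 0.832 and 1.53, and Slc25a27 and Slc25a30 just outside it at 0.61 and 0.449.

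Markers of other cells moved with these results, and their part in them was not tested. Of 15 proximal tubule markers, 11 were lower in CKD than in Control and none higher, and the 15 summed to 41200 to 48800 scaled reads in CKD TRF, 36300 to 43700 in CKD and 64900 to 83100 in Control. All 5 fibroblast markers and all 6 macrophage markers were higher in CKD, with sums of 943 to 1080 and 335 to 398 in CKD TRF, 1140 to 1290 and 352 to 452 in CKD, and 215 to 263 and 118 to 144 in Control. Of 7 tested adipocyte markers 6 were higher in CKD, and the 8 measured ones summed to 55.7 to 352 in CKD TRF, 87.6 to 776 in CKD and 112 to 241 in Control, with Plin1 at 0 in all 4 Control libraries. All 6 tested urothelium markers were higher, and the 7 measured ones summed to 32.8 to 121 in CKD TRF, 28.9 to 141 in CKD and 3.68 to 14.7 in Control. Of 4 T cell markers 3 were higher, with sums of 9.12 to 11.7 in CKD TRF, 11 to 15.2 in CKD and 0.936 to 2.25 in Control. Of 5 podocyte markers 3 were higher, with sums of 294 to 366 in CKD TRF, 279 to 328 in CKD and 208 to 266 in Control, and of 5 endothelium markers likewise 3, with sums of 294 to 381 in CKD TRF, 262 to 345 in CKD and 197 to 277 in Control. Markers of the distal nephron were mixed, with 4 higher and 1 lower of 7 for the loop of Henle and distal tubule and 3 higher and 2 lower of 7 for the collecting duct. The loop and distal tubule markers summed to 2980 to 3490 in CKD TRF, 3220 to 3400 in CKD and 1780 to 3500 in Control, and the collecting duct markers to 484 to 920 in CKD TRF, 415 to 694 in CKD and 379 to 451 in Control. Of 6 red blood cell markers 5 were lower and 1 higher, with sums of 2860 to 4410 in CKD TRF, 2050 to 3370 in CKD and 4900 to 13500 in Control. Of 2 tested skeletal muscle markers 1 was lower, Acta1, at low means of 0.206 scaled reads in CKD TRF, 0.323 in CKD and 2.49 in Control. Neither of 2 tested neutrophil markers passed, nor did the 1 tested adrenal cortex marker. Of 3 tested pancreas and liver markers 1 was lower and none higher.

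Leaving out the 5 diseased libraries whose fat marker sum exceeded 10 times the highest Control value, which kept CKD 1, CKD 3 and CKD TRF 2, gave 15 Slc25 genes called in CKD against Control, 14 lower and 1 higher. Of these, 14 were among the 22 and Slc25a22 was not. Without the 6 libraries over 3 times that value, CKD 3 and CKD TRF 2 stood alone in their groups, each assumed to vary like the Control libraries. Then 3 genes passed: Slc25a4 (-1.41 ± 0.20), Slc25a24 (1.68 ± 0.31) and Slc25a51 (-0.70 ± 0.17), with limma adjusted p = 0.00645, 0.0149 and 0.0395. All 22 kept their sign in both fits. The calls of Slc25a5, Slc25a11, Slc25a15, Slc25a23, Slc25a34 and Slc25a38 ended under this fit alone of the 27 alternatives, at changes of -0.60, -0.48, -0.59, -0.66, -0.83 and -0.49 (limma adjusted p = 0.2, 0.109, 0.0717, 0.0735, 0.112 and 0.295).

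**Figure D4:**
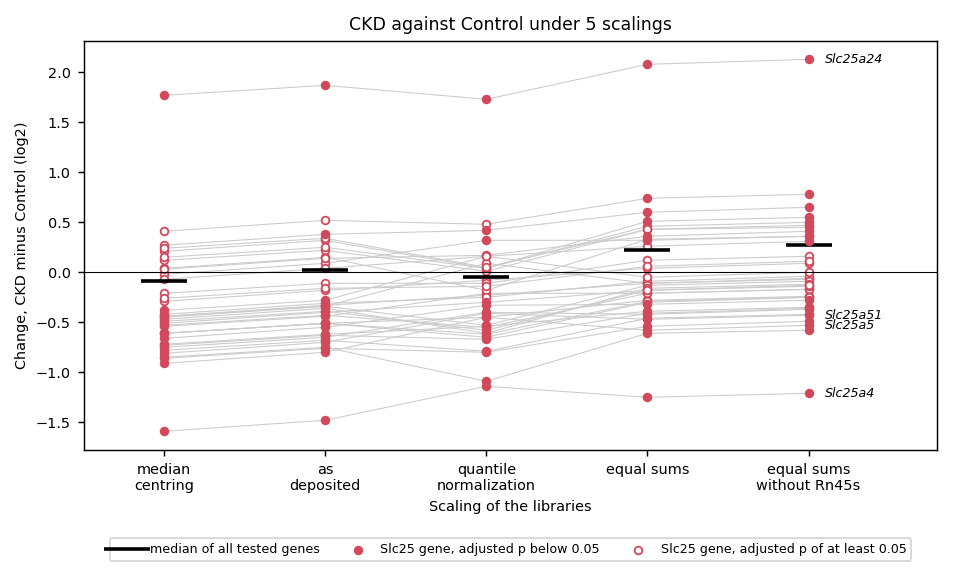
Points are the changes of all but 1 of the 38 tested Slc25 genes in CKD minus Control under 5 scalings of the libraries, filled where the limma adjusted p was below 0.05, with thick bars for the median of all tested genes. The points rise together under the equal-sum scalings, Slc25a24 and Slc25a4 stay at the top and the bottom, and Slc25a3 and Slc25a39 turn positive under quantile normalization.

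The comparison of CKD TRF with CKD asks whether the restricted feeding schedule moved the carriers in diseased kidneys. None of the 38 Slc25 genes passed 0.05 in limma, and neither did any of the 13943 tested genes (0%). At an unadjusted p below 0.05 there were 2 of 38 in limma, Slc25a4 and Slc25a15, against 6.38% of all tested genes. Voom on the recovered whole reads called 0 members and 0 genes in all, with 3 members at an unadjusted p below 0.05. Slc25a4 differed by 0.26 ± 0.11 and Slc25a15 by 0.25 ± 0.09, with limma adjusted p = 0.738 and 0.705. Slc25a15 was the one member whose CKD TRF and CKD libraries did not overlap, against 4.5% of all tested genes, with 183 to 206 scaled reads in CKD TRF and 155 to 171 in CKD.

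Changes in CKD TRF against CKD were above 0 for 22 Slc25 genes and below 0 for 16, with a median of 0.05 against -0.01 over all tested genes. That median turned to -0.03 and -0.01 when libraries were scaled to equal sums, with and without Rn45s. The changes of Slc25a4 and Slc25a15 stayed above 0 under all 27 alternatives, at 0.11 to 0.34 and 0.17 to 0.32. This did not set them apart. Slc25a1, Slc25a10, Slc25a14, Slc25a34, Slc25a37, Slc25a45, Slc25a48 and Slc25a51 were among others that also stayed above 0. Slc25a12, Slc25a16 and Slc25a42 stayed below 0. The alternatives reuse the same libraries, so a steady sign is no further evidence. The 95% intervals of the 38 genes lay within -0.82 and 0.96, and reached a median of 0.30 to either side of the estimate. This depth and number of libraries leave shifts of that size unresolved in a typical member. The intervals are not adjusted for the number of genes tested, so larger shifts could also miss the adjusted threshold. Slc25a48 had the largest estimate, 0.46 ± 0.24 (interval -0.03 to 0.96, limma adjusted p = 0.789), with 1.77 to 2.22 scaled reads in CKD TRF and 0.714 to 1.86 in CKD. Slc25a25 had the lowest, -0.33 ± 0.24 (interval -0.82 to 0.16, limma adjusted p = 0.847).

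**Figure D5:**
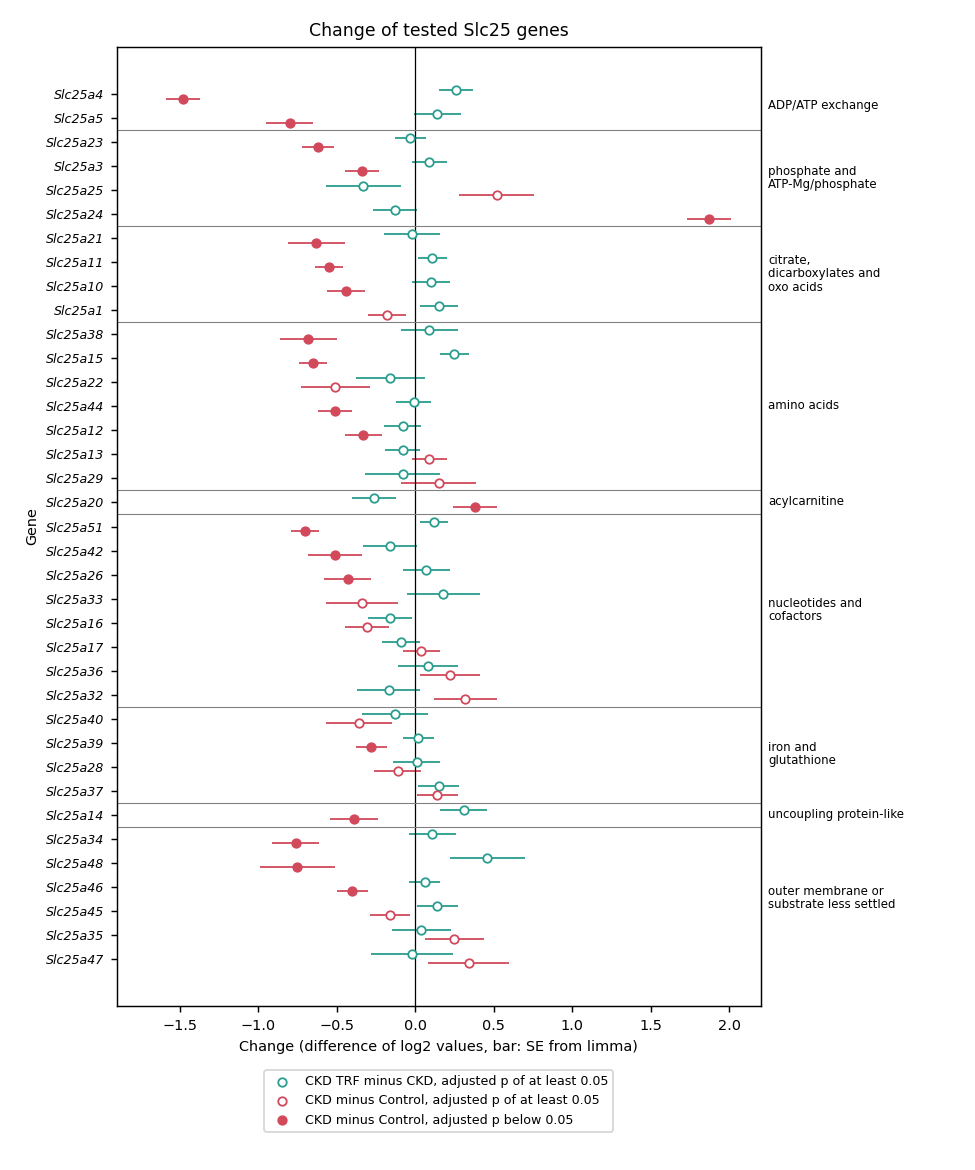
Points are the changes of all but 1 of the 38 tested Slc25 genes with their SE from limma, in CKD TRF minus CKD (teal) and in CKD minus Control (red), filled where the adjusted p was below 0.05, and grouped by substrate. No teal point is filled and all lie between -0.33 and 0.46, while the red points run from -1.48 for Slc25a4 to 1.87 for Slc25a24.

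Against Control, CKD TRF kidneys were lower for 16 Slc25 genes and higher for 1, where 17.9% and 19.5% of all tested genes were lower and higher (37.5% in either direction). The median change was -0.27 over the 38 genes and 0.01 over all tested genes, and the groups did not overlap for 12 of the 38, 11 lower and 1 higher, against 31.9% of all (15.6% lower, 16.3% higher). Of the 21 members with a mean log2 value of at least 5, 11 were lower and none higher, and 32.1% and 14.5% of all genes at such levels were lower and higher. This comparison shares its Control libraries with that of CKD. Slc25a4 stood at -1.22 ± 0.11 in CKD TRF and -1.48 ± 0.11 in CKD against Control, and Slc25a24 at 1.74 ± 0.14 in CKD TRF and 1.87 ± 0.14 in CKD (limma adjusted p in CKD TRF = 9.9e-08 and 2.8e-08), and both held in CKD TRF under all 27 alternatives. Slc25a22, the glutamate carrier, passed in CKD TRF (-0.67 ± 0.22, limma adjusted p = 0.0192), with 7.52 to 12.9 scaled reads in CKD TRF and 14.8 to 20.9 in Control, and so did Slc25a16 (-0.47 ± 0.14, 0.00975). Both calls ended under the equal-sum scalings, and whether either gene differed between CKD TRF and CKD is given by that comparison, where neither passed. The call of Slc25a22 ended without Control 1 or CKD TRF 1 (-0.58 to -0.54, adjusted p = 0.0666 to 0.074), that of Slc25a38 without Control 1 or CKD TRF 4 (adjusted p = 0.0509 to 0.0522), and that of Slc25a10 without Control 1, Control 2 or CKD TRF 1, 2 or 4 (0.0576 to 0.144). With libraries scaled to equal sums, with and without Rn45s, the median of all genes moved up by 0.13 and 0.20, and 11 and 8 members were lower and 2 and 3 higher. Over all tested genes 10.3% and 8.06% were then lower and 26.2% and 31.5% higher. Without the 5 and the 6 libraries with most fat marker reads 3 and 2 members passed. For the 22 genes called in CKD, the mean of CKD TRF lay between CKD and Control for 17, a description with no test. It lay beyond CKD for 5 (Slc25a12, Slc25a21, Slc25a23, Slc25a42 and Slc25a44). These 22 genes were picked by the same CKD and Control libraries, a choice that favours CKD means far from Control. A CKD TRF mean nearer to Control can follow from that choice alone. The summed scaled reads of the CKD TRF libraries also lay between those of CKD and Control. No effect of feeding can therefore be read from this count.

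Scaled reads of all 47 Slc25 genes together summed to 3591 to 3940 in CKD TRF, 3396 to 3781 in CKD and 4786 to 5598 in Control. Slc25a3, Slc25a4, Slc25a5 and Slc25a39 held 52.5% to 54.3% of this sum in CKD TRF, 49.7% to 54.2% in CKD and 55.8% to 58.7% in Control.

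Genes that work beside the carriers were read from lists, with the same share of all genes as background (21.8% lower and 23.6% higher in CKD than in Control). Most of the listed genes had a mean log2 value of at least 5. Of all genes at such levels, 38.6% were lower and 17% higher, so the counts below are also to be set beside these larger shares of lower genes. Carriers reach the inner membrane through the TOM pore, the small TIM chaperones and the TIM22 insertase, and 10 of 15 such import genes fell in CKD with none rising. Timm9, a small TIM chaperone, averaged 66.8 ± 3.36 scaled reads in CKD TRF, 60.8 ± 6.64 in CKD and 127 ± 8.85 in Control (SD, n = 4) and fell by 1.06 ± 0.10 (limma adjusted p = 7.5e-08). Tomm7, a subunit of the TOM complex, fell by 1.00 ± 0.11 (7.0e-07), and both calls held under all 27 alternatives. Tomm40, the pore itself, fell by 0.75 ± 0.14, Timm8b by 0.74 ± 0.12, Tomm5 by 0.68 ± 0.14, Timm10 by 0.61 ± 0.11, Timm8a1 by 0.57 ± 0.12, the carrier receptor Tomm70a by 0.54 ± 0.09 and Timm13 by 0.51 ± 0.11. The 10th, Tomm22, fell by 0.26 ± 0.10 (limma adjusted p = 0.0408) a call that ended without Control 1, Control 2, CKD 1, CKD 2 or CKD 3 (-0.27 to -0.21, adjusted p = 0.0652 to 0.115), and it stood at 0.01 under equal sums without Rn45s. Timm22, the insertase, changed by -0.26 ± 0.15 and did not pass (0.161). Without the libraries over 3 times the fat marker level 2 of the 15 still passed.

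In CKD TRF against CKD none of the 15 import genes passed. The groups did not overlap for 5 of them, Tomm22, Tomm5, Timm8b, Timm10 and Timm22, all higher in CKD TRF, against 2.37% of all tested genes higher without overlap. Their changes were 0.17 ± 0.10, 0.32 ± 0.14, 0.34 ± 0.12, 0.20 ± 0.11 and 0.31 ± 0.15, with no limma adjusted p below 0.705.

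The pyruvate carrier, which is no Slc25 protein, fell in both subunits. Mpc2 averaged 414 ± 6.00 scaled reads in CKD TRF, 364 ± 42.0 in CKD and 649 ± 87.5 in Control (SD, n = 4) and fell by 0.83 ± 0.10 in CKD (limma adjusted p = 3.0e-06). Mpc1 averaged 156 ± 7.47 in CKD TRF, 149 ± 12.2 in CKD and 219 ± 46.6 in Control and fell by 0.53 ± 0.12 (0.00138). The call of Mpc1 ended without the 5 and without the 6 fat libraries and under equal sums without Rn45s. Of 5 sideroflexins, a separate family of mitochondrial carriers, Sfxn5 fell by 1.15 ± 0.17, Sfxn2 by 0.81 ± 0.11 and Sfxn1, the serine carrier, by 0.48 ± 0.09, and Sfxn3 rose by 0.74 ± 0.16 (limma adjusted p = 2.1e-05, 9.5e-06, 3.3e-04 and 7.5e-04). All 3 outer membrane channels fell, Vdac1 by 0.58 ± 0.10, Vdac3 by 0.41 ± 0.10 and Vdac2 by 0.33 ± 0.10 (limma adjusted p = 1.3e-04, 0.00293 and 0.0111). The calls of Sfxn1, Vdac2 and Vdac3 ended under equal sums without Rn45s.

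Of 4 enzymes of the malate-aspartate shuttle 1 fell in CKD (25%, near the 21.8% of all tested genes). Mdh1, the cytosolic malate dehydrogenase, averaged 816 ± 17.3 scaled reads in CKD TRF, 686 ± 91.8 in CKD and 1500 ± 229 in Control (SD, n = 4) and fell by 1.12 ± 0.12 in CKD (limma adjusted p = 3.2e-07). The other 3 enzymes of that shuttle, Got1, Got2 and Mdh2, did not pass. Mdh2 passed as higher under the equal-sum scalings and quantile normalization, and Got2 and Got1 as lower under 5 and 1 of the 27 alternatives. None of the 5 carnitine shuttle partners of Slc25a20 passed, with Cpt1a at -0.22 ± 0.09 and Cpt2 at -0.03 ± 0.10 (0.0648 and 0.84). Cpt1b had the highest change of the 5, at 0.56. It passed as higher under 7 of the 27 alternatives and Crat under 3, while Cpt1a passed as lower under 2. In CKD TRF against Control Cpt1a was called lower, a call that ended under 6 of the 27 alternatives. Of 5 tested enzymes of glutamate and ornithine use 3 fell: Odc1, which makes putrescine from ornithine, by 1.56 ± 0.13 (2.4e-08), Arg2, mitochondrial arginase, by 0.54 ± 0.11 (3.9e-04), and Glud1, glutamate dehydrogenase, by 0.42 ± 0.10 (0.0029), a call that ended under the equal-sum scalings.

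Of 6 enzymes of citrate and cytosolic acetyl-CoA 3 fell and 1 rose. Pck1, the cytosolic enzyme of glucose formation, fell by 0.74 ± 0.11, Cs, citrate synthase, by 0.52 ± 0.11 and Acss2 by 0.51 ± 0.13, while Acly, ATP citrate lyase, rose by 0.47 ± 0.13 (limma adjusted p = 2.7e-05, 0.00101, 0.00237 and 0.00503). The calls of Cs and Acss2 ended under the equal-sum scalings, and that of Acly without the 5 and without the 6 fat libraries and with the fat markers as a covariate. Of 9 tested genes of mitochondrial iron and heme 4 fell, among them Iscu, the scaffold for iron-sulfur clusters, by 0.97 ± 0.13 and Alas2, the first heme enzyme of red cells, by 1.65 ± 0.28 (4.2e-06 and 8.5e-05), and Alas2 is also one of the red blood cell markers above.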

How the data were processed

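Kidney RNA of 12 libraries was made into QuantSeq libraries with Lexogen reagents, per the labels' protocols. Per the submitters' processing notes the authors' tools included Bowtie2 and bedtools and the build was mm10, with no versions or roles given. The deposited values, read here from the numbers themselves as the log2 of scaled reads plus 1, were scaled by the authors with a method not given in the sources used here. Depth came from the steps between low values: below 20 scaled reads, 98.3% to 100% of a library's values were whole reads to within 0.1. The 60% of genes with the highest mean (13943, lowest mean log2 value 0.729) were tested in 1 fit of 3 group means in limma 3.58.1 (R 4.3.3), with a trend in the prior spread, two-sided, Benjamini-Hochberg over all tested genes at 0.05, a procedure checked on simulated data. Alternatives were 4 scalings, 2 other added constants, 2 filters, voom, library weights, only the groups compared, a fat marker covariate, leaving out libraries with fat markers (10 times the Control level was added after seeing the data, 3 times was planned), the replicate number as a block, and each library left out. The members and lists were chosen with earlier results of these data known. By the naming rule, values in every library are given for members past 0.05 in CKD with groups apart and a change of at least 0.5, and for substrate groups whose paralogues moved in opposite directions. Ratios were computed with pandas 2.3.3 (Python 3.11.15). Positions are from GENCODE vM21, promoters from RefSeq for 36 of the 47 genes. Copies of the last 500 bases of each transcript were sought with blastn 2.17.0 (at least 100 bases at 95% identity). Listed genes absent from the files (Mcart1, Mcart6, Mpc1l and Timm29) were not analysed here, and 1 tested member is counted but its own values are not reported here.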

Additional observations from a re-analysis of the deposited data

Results flagged for a closer look

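In 2 of 114 groups of 4 libraries, 1 library lay apart from the other 3 by Dixon's test at 95%, which flags about 1 group in 20 by chance. Slc25a11, the 2-oxoglutarate/malate carrier, had a log2 value of 6.82 in CKD 2, against 7.08 to 7.09 in the other 3 CKD libraries. Slc25a16, linked to CoA import, had 5.70 in CKD 3, against 5.48 to 5.51 in the other 3.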

How the results depend on the processing

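Of 22 Slc25 genes called in CKD against Control, 3 held under all 27 alternatives (Slc25a4, Slc25a24, Slc25a51), and of 17 in CKD TRF against Control, 2 held (Slc25a4, Slc25a24). None of the 38 was called in CKD TRF against CKD under any of them. Without the 6 libraries over 3 times the fat marker level of Control, which leaves 1 CKD and 1 CKD TRF library assumed to vary like Control, 3 members were called in CKD against Control and 2 in CKD TRF against Control, and over all genes 1003 and 782. Without the 5 libraries over 10 times that level, a setting chosen after seeing the data, 3 members were called in CKD TRF against Control, and over all genes 4037 in CKD and 1478 in CKD TRF against Control. Both settings use fewer libraries. Equal sums without Rn45s gave 11 members in CKD TRF against Control, 9 of them among the 17, and 5522 over all genes. The cause was not tested. Over all genes 1 passed in CKD TRF against CKD with no filter on low values, and 0 to 1 when each library was left out in turn, the 1 without CKD TRF 1.

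Among genes called as deposited, signs turned in CKD against Control for Slc25a3 (0.09) and Slc25a39 (0.16) under quantile normalization, for Tomm22 (0.01) under equal sums without Rn45s and for Ucp1 (-0.11) with a fat marker covariate. In CKD TRF against Control Ucp1 turned to -0.20 with that covariate and to -0.11 without the 6 and -0.11 without the 5 libraries. The cause was not tested.

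Libraries with the same number did not pair: correlations of their deviations ran from -0.179 to 0.11, and 2 of 12 libraries correlated best with their own number. With the replicate number as a block, 21 Slc25 genes were called in CKD against Control, 0 in CKD TRF against CKD and 16 in CKD TRF against Control. Over all 13943 tested genes 6131, 0 and 5033 were called in these comparisons.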

Other observations

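Uncoupling proteins belong to the same family under other symbols. Ucp2, an uncoupling protein found in many tissues, averaged 22.8 ± 5.23 scaled reads in CKD TRF, 25.5 ± 4.29 in CKD and 12.8 ± 2.59 in Control (SD, n = 4) and rose by 0.94 ± 0.17 in CKD against Control (limma adjusted p = 1.7e-04). Mtch2, an outer membrane relative of the carriers that inserts proteins into that membrane, averaged 218 ± 15.2 in CKD TRF, 196 ± 13.6 in CKD and 325 ± 13.5 in Control and fell by 0.73 ± 0.09 (limma adjusted p = 1.9e-06). Its paralogue Mtch1 changed by 0.03 ± 0.09 (0.834), and Ucp3 was too low to be tested.

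Ucp1, the heat-producing uncoupling protein of brown fat, had log2 values of 2.55, 0, 2.91 and 4.32 in CKD TRF 1 to 4, 0.83, 4.76, 0.43 and 5.71 in CKD 1 to 4, and 0, 0.45, 0 and 0 in Control 1 to 4. The libraries high in Ucp1 were those high in the summed fat markers (Adipoq, Plin1, Cidec and Cfd), and CKD TRF 2 was low in both. The change in CKD against Control was 2.82 ± 0.91 (limma adjusted p = 0.0154), and it ended without CKD 2 (2.21, adjusted p = 0.0686) and without CKD 4 (1.89, 0.073). Without the libraries over 3 and over 10 times the fat marker level of Control it was 0.32 and 0.52, and with the markers as a covariate -0.11, none past the threshold.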
